A study of Mus musculus with 6 samples.

Results

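The intestinal stem cell genes examined here were 10 genes of the columnar stem cells at the crypt base, namely *Lgr5*, *Olfm4*, *Ascl2*, *Smoc2*, *Axin2*, *Sox9*, *Rnf43*, *Znrf3*, *Tnfrsf19* and *Cdca7*. They were chosen by symbol from the 22611 genes of a table of FPKM values, fragment counts scaled to transcript length and sequencing depth, and all 10 had a row. Earlier results of these data were known when the members and the gene lists below were chosen. Counts of direction over them are therefore descriptions. The table holds 6 RNA-seq libraries of duodenal epithelium, 3 from WT mice and 3 from *Esrra*-/- mice, labelled ESRRAKO, which lack the orphan nuclear receptor ESRRA. *Esrra*-/- is a germline allele, so the receptor is missing from every tissue and not from the epithelium alone. Both groups were littermates kept on a high-fat diet for several weeks, and males and females were used. The breeding also carried a *Villin-CreERT2* transgene and a floxed *Esrra* allele, and the control libraries are labelled WT with no further genotype. The libraries of a genotype are biological replicates by the description of the study, and the labels do not tie a library to a mouse. The age of the mice is not given in the sources used here. In bulk epithelium, fewer stem cells and less RNA per stem cell cannot be told apart.

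Intestinal stem cells sit between Paneth cells at the crypt base and renew the epithelium throughout life. They depend on Wnt, which reaches Frizzled and LRP receptors, stabilises beta-catenin and turns on genes through TCF factors. R-spondin raises the Wnt response by binding LGR receptors and removing the ubiquitin ligases RNF43 and ZNRF3, which otherwise clear Frizzled from the cell surface. Stem cell daughters divide rapidly in the crypt and then stop dividing, leave the crypt and mature on the villus.

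*Smoc2* and *Cdca7* were lower in *Esrra*-/- epithelium than in WT, at 55.9% and 60.6% of the WT mean FPKM. No member was called higher. A gene was called when limma, a linear model fitted over all genes tested, gave an unadjusted p below 0.05 with at least 0.58 between the genotypes in log2 fold change, as the study set its thresholds. Testing took in the 10596 genes whose mean FPKM exceeded 1. Of these, 3.28% were called lower and 1.35% were called higher, against 2 and 0 of the 9 members that passed this filter. *Tnfrsf19*, with a mean of 0.214 FPKM, did not pass it and was not tested. *Znrf3* and *Lgr5* passed narrowly, with means of 1.00 and 1.04 FPKM. Neither *Smoc2* nor *Cdca7* held after Benjamini-Hochberg adjustment over all genes tested, a correction that 0.0378% of genes passed. Of the 9 members, 8 lay below 0 in log2 fold change, as did 45.7% of all genes tested, and the median was -0.67 for the members and 0.03 for all genes.

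Promoter sequences are shown for 4 members that differ in outcome, namely *Cdca7*, which was called lower, *Olfm4*, the most abundant, *Tnfrsf19*, the least abundant, and *Rnf43*, the only member with a positive log2 fold change. Each is the 250 bases before the annotated start in RefSeq (GRCm38.p6), 5′ to 3′ on the strand of the gene, with capitals marking a motif match. RefSeq promoters were matched for 6 of the 10 members, the others being *Ascl2* and *Axin2*, and not for *Lgr5*, *Smoc2*, *Sox9* and *Znrf3*.
Cdca7 (chr2:72475969-72476218, plus strand): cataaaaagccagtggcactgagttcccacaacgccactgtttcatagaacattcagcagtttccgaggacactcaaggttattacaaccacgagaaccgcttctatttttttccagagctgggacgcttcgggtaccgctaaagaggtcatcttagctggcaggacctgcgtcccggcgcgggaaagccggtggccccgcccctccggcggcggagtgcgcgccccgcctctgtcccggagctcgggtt
Olfm4 (chr14:80000052-80000301, plus strand): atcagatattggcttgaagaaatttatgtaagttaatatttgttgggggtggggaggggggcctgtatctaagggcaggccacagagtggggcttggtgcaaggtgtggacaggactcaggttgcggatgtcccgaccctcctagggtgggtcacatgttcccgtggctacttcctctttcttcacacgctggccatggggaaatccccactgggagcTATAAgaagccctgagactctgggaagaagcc
Tnfrsf19 (chr14:61037988-61038237, minus strand): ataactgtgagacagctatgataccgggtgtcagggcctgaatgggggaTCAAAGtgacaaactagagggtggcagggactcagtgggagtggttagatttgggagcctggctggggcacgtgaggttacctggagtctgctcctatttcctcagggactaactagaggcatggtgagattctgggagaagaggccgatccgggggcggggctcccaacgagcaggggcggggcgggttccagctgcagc
Rnf43 (chr11:87662837-87663086, plus strand): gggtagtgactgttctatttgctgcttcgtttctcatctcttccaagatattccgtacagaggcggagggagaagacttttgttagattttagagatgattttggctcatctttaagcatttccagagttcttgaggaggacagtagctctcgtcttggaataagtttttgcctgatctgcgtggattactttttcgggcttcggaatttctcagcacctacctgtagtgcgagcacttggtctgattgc

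The letters searched were CTTTGA on either strand, the core recognised by TCF factors, AAGGTCA on either strand, the core site of estrogen-related receptors, and TATAA on the sense strand in the stretch where a TATA box lies. *Olfm4* held TATAA starting 32 bases before its start, as did 2.92% of the 7559 tested genes with a promoter. *Tnfrsf19* held CTTTGA on the opposite strand, 201 bases before its start, where it reads TCAAAG. *Tnfrsf19* and *Rnf43* each have 2 RefSeq starts, of which 1 is shown, and the starts not shown held none of the letters searched. CTTTGA was held at 1 start or more by 1 of the 6 members, 13.2% of tested genes and 15.8% of all 27025 genes with a promoter. *Tnfrsf19* itself was not a tested gene. AAGGTCA was in none of the promoters of the 6 members and in 3.73% of tested genes. No matches overlapped, and a match is a description of letters only.

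*Esrra* itself separated the groups. It was 49.4, 73.5 and 104 FPKM in WT and 10.4, 9.42 and 8.72 FPKM in *Esrra*-/-, a log2 fold change of -2.92 ± 0.26 (SE, limma adjusted p = 0.0215). Replicate 3 of each genotype had almost no Y-linked transcripts, a summed 0.0487 FPKM in WT and 0.222 FPKM in *Esrra*-/-, against 27.3 to 46.7 FPKM in the other 4 libraries. Each group therefore held 2 libraries with Y-linked transcripts and 1 without. Enterocyte, goblet and Paneth cell markers were abundant, whereas 12 mesenchymal markers summed to 3.60 to 11.9 FPKM, with *Vim* and *Thy1* the only ones with a mean above 1, and endothelial markers to 0.125 to 0.359 FPKM. Immune markers summed to 27.7 to 61.1 FPKM. Brunner gland markers summed to 0.0369 to 0.218 FPKM, and 5 of 8 pancreatic acinar markers were listed at 0 in every library.

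*Lgr5*, on chromosome 10 from 114887367 to 115024836 (mm9, minus strand), encodes the R-spondin receptor that defines crypt base stem cells. It was 1.27, 1.93 and 0.940 FPKM in WT and 0.876, 0.974 and 0.247 FPKM in *Esrra*-/-. The *Esrra*-/- replicate 2 library lay above the lowest WT library, so the groups overlapped, and *Esrra*-/- replicate 3 was far below the rest. It averaged 1.38 ± 0.506 FPKM over WT libraries and 0.699 ± 0.395 FPKM over *Esrra*-/- libraries (SD, n = 3 per genotype), a log2 fold change of -0.997 ± 0.53 (SE) that did not pass the test (limma unadjusted p = 0.0982, adjusted p = 0.537). The value moved when single libraries were left out. Without *Esrra*-/- replicate 3 the *Lgr5* log2 fold change was -0.48, and without *Esrra*-/- replicate 2 it was -1.29, neither of which was called.

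*Rnf43* and *Znrf3*, the paired ubiquitin ligases that the R-spondin and LGR5 complex removes, differed in the sign of their log2 fold change. Neither was called, and the difference between them was not tested. *Rnf43* (chromosome 11, 87476224 to 87549041, plus strand) was 5.84, 6.15 and 7.36 FPKM in WT and 6.66, 7.07 and 7.62 FPKM in *Esrra*-/-. Its groups overlapped, and its log2 fold change was 0.14 ± 0.14 (SE, limma unadjusted p = 0.322, adjusted p = 0.734). *Znrf3* (chromosome 11, 5176327 to 5344850, minus strand) was 1.18, 1.40 and 0.858 FPKM in WT and 0.815, 1.10 and 0.662 FPKM in *Esrra*-/-. The *Znrf3* groups overlapped as well, with a log2 fold change of -0.38 ± 0.34 (SE, limma unadjusted p = 0.300, adjusted p = 0.719). With 1 library left out, *Znrf3* went from -0.56 (WT replicate 3 out) to -0.23 (*Esrra*-/- replicate 3 out) and *Rnf43* from 0.08 (WT replicate 1 out) to 0.24 (WT replicate 3 out), with no call in any of these fits. *Rnf43* was the more abundant ligase per transcript length in every library. The ratio of *Rnf43* to *Znrf3* FPKM was 4.93, 4.39 and 8.58 in WT and 8.16, 6.41 and 11.5 in *Esrra*-/-, and the ranges of the genotypes overlapped.

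*Ascl2*, a basic helix-loop-helix factor that maintains the stem cell state downstream of Wnt, lies on chromosome 7 from 150152727 to 150155169 (minus strand). It was 1.85, 2.47 and 2.57 FPKM in WT and 1.38, 2.02 and 0.965 FPKM in *Esrra*-/-. Only *Esrra*-/- replicate 2 reached the WT range. The log2 fold change of -0.67 ± 0.30 (SE) did not pass the test (limma unadjusted p = 0.0591, adjusted p = 0.480), and without *Esrra*-/- replicate 2 it was -0.92 and was called (unadjusted p = 0.0155, adjusted p = 0.319). Without *Esrra*-/- replicate 3 it was -0.42 and was not called. *Sox9*, a high mobility group factor of crypt base and Paneth cells, lies on chromosome 11 from 112643538 to 112649074 (plus strand). It was 5.78, 4.17 and 3.48 FPKM in WT and 2.90, 4.89 and 2.13 FPKM in *Esrra*-/-, with *Esrra*-/- replicate 2 above 2 of the 3 WT libraries. Its log2 fold change was -0.47 ± 0.32 (SE, limma unadjusted p = 0.179, adjusted p = 0.621), and without *Esrra*-/- replicate 2 it was -0.79 and was called (unadjusted p = 0.0224). Leaving out *Esrra*-/- replicate 3 or WT replicate 1 gave -0.21 and -0.28 for *Sox9*. Without *Esrra*-/- replicate 2 the share of all genes called lower was 5.07%. *Ascl2* was also called in the fit without the limma trend (unadjusted p = 0.0458), and *Sox9* in no other fit.

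*Axin2*, a scaffold of the beta-catenin destruction complex and a direct Wnt target that damps the pathway, lies on chromosome 11 from 108781663 to 108812097 (plus strand). It was 12.2, 11.3 and 6.74 FPKM in WT and 7.86, 11.1 and 4.05 FPKM in *Esrra*-/-. The spread within each genotype was larger than the difference between them. It averaged 10.1 ± 2.93 FPKM over WT libraries and 7.66 ± 3.51 FPKM over *Esrra*-/- libraries (SD, n = 3 per genotype), with a log2 fold change of -0.46 ± 0.38 (SE, limma unadjusted p = 0.266, adjusted p = 0.694). Leaving out *Esrra*-/- replicate 2 gave -0.78 for *Axin2*, and leaving out *Esrra*-/- replicate 3 gave -0.06, with no call in either fit. *Tnfrsf19*, also called Troy, is a Wnt target and receptor of the tumor necrosis factor family that marks stem cells, and lies on chromosome 14 from 61582671 to 61665692 (minus strand). It was 0.213, 0.406 and 0.288 FPKM in WT and 0.133, 0.143 and 0.0976 FPKM in *Esrra*-/-. All 3 *Esrra*-/- libraries lay below all 3 WT libraries, with a difference of -0.82 between the mean log2 values. For tested genes the share with such a separation was 9.14%, which does not cover a gene this low. At this level the gene was below the filter, and the exact two-sided permutation test gave p = 0.1, the smallest that 3 against 3 libraries allow. With no filter on low values *Tnfrsf19* was called lower (limma unadjusted p = 0.0183, adjusted p = 0.519), as were 2.99% of the genes then tested.

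*Olfm4*, which encodes a secreted glycoprotein made in quantity by crypt base cells, lies on chromosome 14 from 80400109 to 80422667 (plus strand). It was 167, 205 and 104 FPKM in WT and 94.7, 149 and 36.1 FPKM in *Esrra*-/-. The groups overlapped through *Esrra*-/- replicate 2, which was above WT replicate 3. It averaged 159 ± 50.6 FPKM over WT libraries and 93.3 ± 56.5 FPKM over *Esrra*-/- libraries (SD, n = 3 per genotype), 58.8% of WT. The log2 fold change of -0.94 ± 0.51 (SE) did not pass the test (limma unadjusted p = 0.106, adjusted p = 0.546). Leaving out *Esrra*-/- replicate 2 gave a called value of -1.39 (unadjusted p = 0.0204), and leaving out *Esrra*-/- replicate 3 gave -0.36.

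*Smoc2*, a secreted matrix protein that binds calcium and marks *Lgr5* cells, lies on chromosome 17 from 14416513 to 14541797 (plus strand). It was 10.4, 12.7 and 10.1 FPKM in WT and 6.88, 6.996 and 4.73 FPKM in *Esrra*-/-. All 3 *Esrra*-/- libraries lay below all 3 WT libraries, as they did for 9.14% of all genes tested, and they lay above them for 8.45%. The mean fell from 11.1 ± 1.39 to 6.20 ± 1.28 FPKM (SD, n = 3 per genotype), a log2 fold change of -0.84 ± 0.18 (SE, limma unadjusted p = 0.00233, adjusted p = 0.247). *Smoc2* was called lower in all 15 alternative fits, with log2 fold changes from -0.94 to -0.66 and adjusted p-values from 0.0632 to 0.587.

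*Cdca7*, a MYC-responsive gene of dividing cells whose product takes part in chromatin remodelling, lies on chromosome 2 from 72314216 to 72324950 (plus strand). It was 11.02, 12.6 and 9.21 FPKM in WT and 5.75, 8.57 and 5.61 FPKM in *Esrra*-/-. The groups did not overlap, with *Esrra*-/- lower, as for 9.14% of all genes tested. *Esrra*-/- replicate 2 and WT replicate 3 were close. The mean fell from 10.96 ± 1.72 to 6.65 ± 1.67 FPKM (SD, n = 3 per genotype), a log2 fold change of -0.73 ± 0.20 (SE, limma unadjusted p = 0.00806, adjusted p = 0.326). It was called lower in all 15 alternative fits, with log2 fold changes from -0.92 to -0.62 and adjusted p-values from 0.0849 to 0.761.

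**Figure D1:**
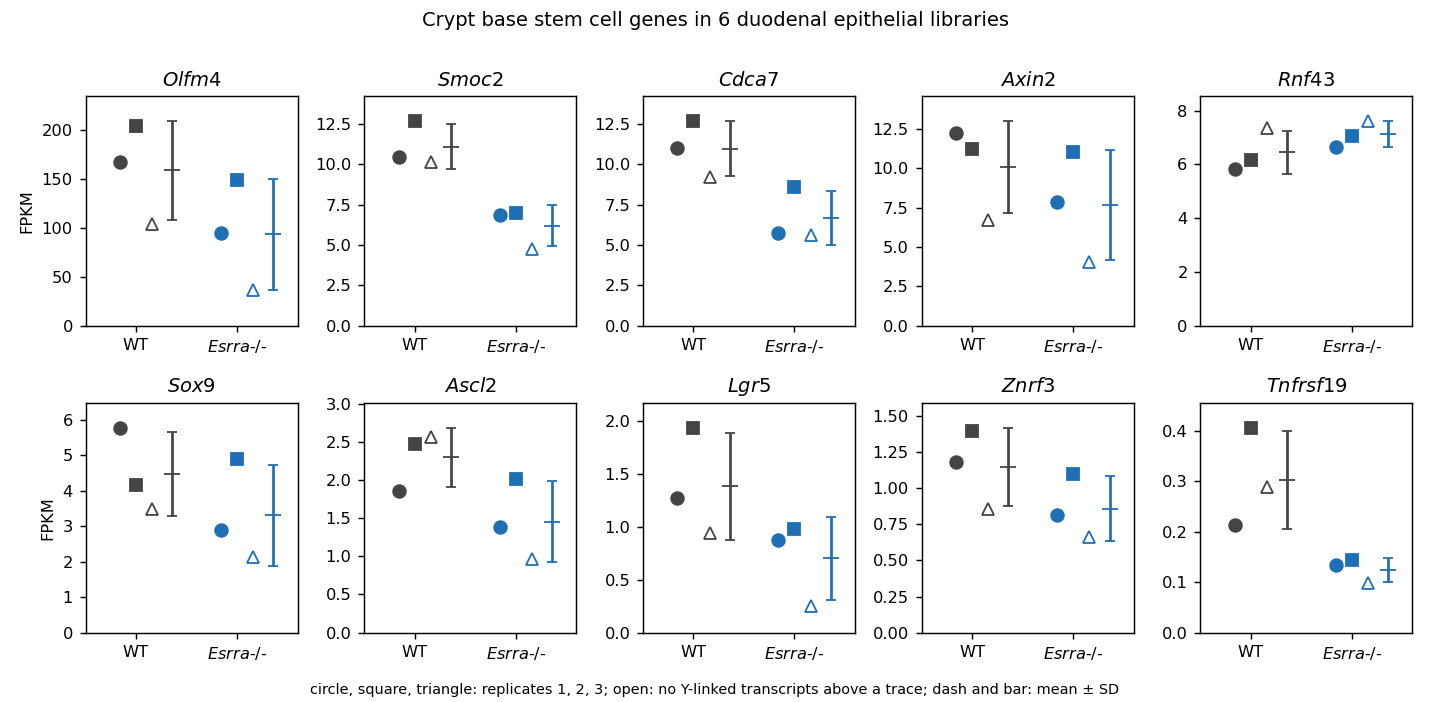
FPKM (linear axis from 0, a panel per gene) of the 10 stem cell genes in the 3 WT and 3 *Esrra*-/- libraries, with each point a library, open points the libraries without Y-linked transcripts, and dash and bar the mean ± SD. *Smoc2*, *Cdca7* and the untested *Tnfrsf19* lie lower in *Esrra*-/- with no overlap, as did 9.14% of all genes tested. *Esrra*-/- replicate 3 is the lowest library for 9 of the 10 genes, against 18.2% of all genes tested.

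**Figure D2:**
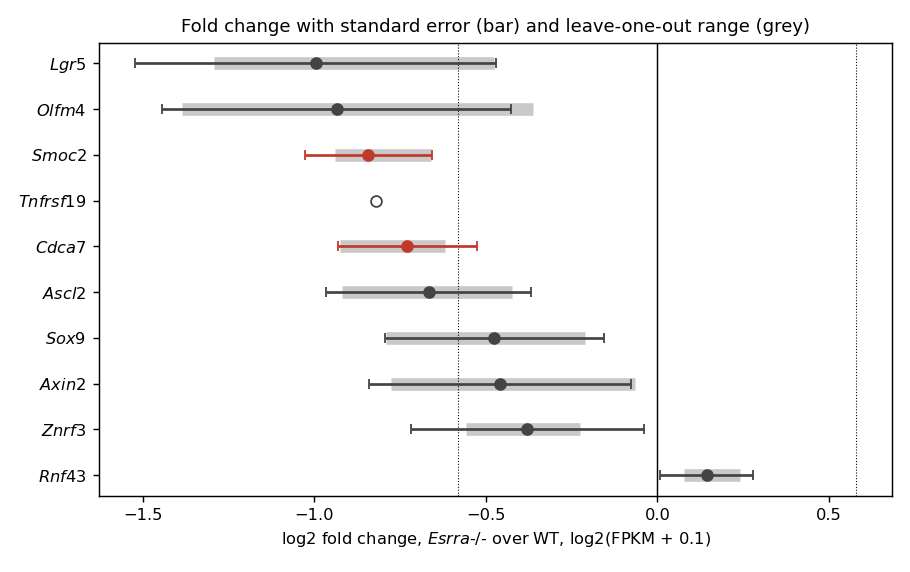
Log2 fold change of *Esrra*-/- over WT for each stem cell gene, with bars giving the standard error from limma, grey bands the range with 1 library left out, red the called genes, the open point the untested *Tnfrsf19* and dotted lines the fold threshold of 0.58. *Smoc2* at -0.84 and *Cdca7* at -0.73 have short bars and were called, whereas *Lgr5* at -0.997 and *Olfm4* at -0.94 have long bars and were not.

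The size of the difference and its precision were not ordered alike. In the reported fit *Lgr5* and *Olfm4* had the most negative log2 fold changes of the 9 tested members, with standard errors of 0.53 and 0.51. *Smoc2* and *Cdca7* had standard errors of 0.18 and 0.20. Without *Esrra*-/- replicate 3, *Lgr5* was at -0.48 and *Olfm4* at -0.36, against -0.66 for *Smoc2* and -0.62 for *Cdca7*. In WT the order of mean FPKM, which is per transcript length, ran from *Olfm4* through *Smoc2*, *Cdca7*, *Axin2*, *Rnf43*, *Sox9*, *Ascl2*, *Lgr5* and *Znrf3* to *Tnfrsf19*. *Olfm4* stood clear of *Smoc2*, and *Tnfrsf19* of *Znrf3*, with no overlap of the 3 WT libraries. *Smoc2*, *Cdca7* and *Axin2* overlapped from neighbour to neighbour, as did *Axin2* with *Rnf43* and *Ascl2*, *Lgr5* and *Znrf3* in turn. *Sox9* was separate from both *Rnf43* above it and *Ascl2* below it.

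The libraries of a genotype differed in a like manner across members. *Esrra*-/- replicate 3 was the lowest of the 6 libraries for 9 of the 10 members, the exception being *Rnf43*, while it was the lowest for 18.2% of all genes tested. WT replicate 2 was the highest for 6 of the 10. The summed FPKM of the members, most of it *Olfm4*, was 217, 258 and 146 in WT and 128, 192 and 62.2 in *Esrra*-/-. The median over the 9 tested members of the log2 deviation from each gene's mean was 0.38, 0.48 and 0.04 in WT and -0.23, 0.16 and -0.78 in *Esrra*-/-. *Esrra*-/- replicate 2 thus lay above WT replicate 3 on this measure. Without *Esrra*-/- replicate 3 the median log2 fold change of the members was -0.36, and *Smoc2* and *Cdca7* were the members called, with 3.18% of all genes then called lower. Without *Esrra*-/- replicate 2 the median was -0.92 and 5 members were called, *Ascl2*, *Sox9* and *Olfm4* in addition.

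The difference was also taken within the libraries with and without Y-linked transcripts. In the 4 libraries with them, *Lgr5* differed by -0.70, *Olfm4* by -0.64, *Ascl2* by -0.34, *Smoc2* by -0.72 and *Cdca7* by -0.74 on the log2 scale. In the pair without them, *Lgr5* differed by -1.58, *Olfm4* by -1.53, *Ascl2* by -1.32, *Smoc2* by -1.09 and *Cdca7* by -0.71, with 1 library per genotype and so no replicate check. Every member kept its direction in both sets. In the 4 libraries with Y-linked transcripts *Smoc2* and *Cdca7* were the members called, and 3.28% of all genes were called lower. The difference between the sets, tested as an interaction in limma, gave unadjusted p-values from 0.0991 for *Olfm4* to 0.932 for *Cdca7* and no adjusted p below 0.916. The set without Y-linked transcripts has 1 library per genotype, so the spread in this test came from the other 4 libraries and the lone libraries were assumed to vary like them. Of all genes tested, 0 had an adjusted interaction p under 0.05 and 561 an unadjusted one. With the presence of Y-linked transcripts as a covariate, 4 members were called lower, as were 3.90% of all genes. They were *Lgr5* (limma unadjusted p = 0.0231, adjusted p = 0.209), *Olfm4* (unadjusted p = 0.0104, adjusted p = 0.173), *Smoc2* (unadjusted p = 0.00064, adjusted p = 0.0632) and *Cdca7* (unadjusted p = 0.00464, adjusted p = 0.136).

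**Figure D3:**
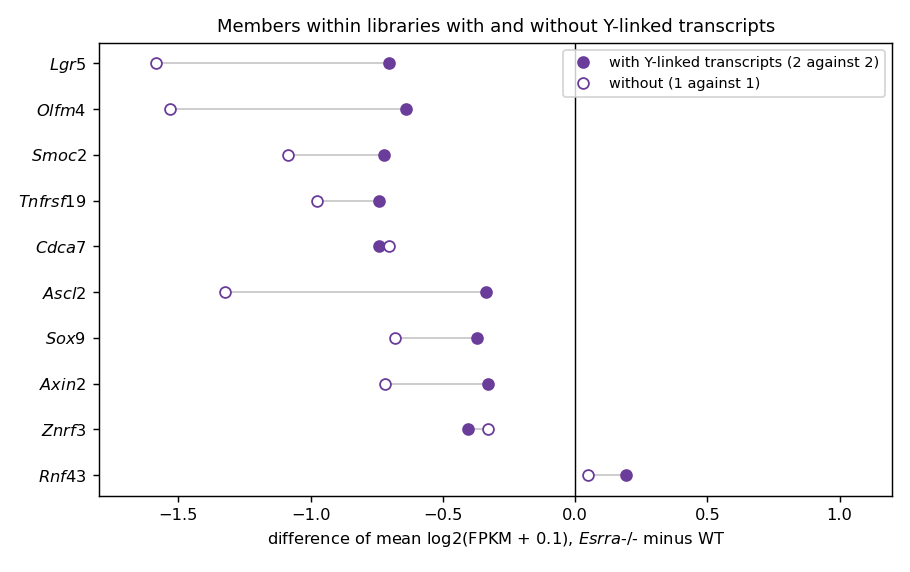
Log2 difference of *Esrra*-/- from WT for each stem cell gene, in the 4 libraries with Y-linked transcripts and in the 2 libraries without. *Lgr5*, *Olfm4* and *Ascl2* lie farther below 0 in the libraries without, while *Cdca7* is at -0.74 and -0.71.

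Other markers of crypt base and reserve stem cells were taken as a list of 22 genes, of which 16 passed the filter. The log2 fold change was negative for 13 and positive for 3, with a median of -0.57, and 1 was called lower and 0 higher. Over all genes tested, 3.28% were called lower. The called gene was *Igfbp4*, an insulin-like growth factor binding protein of the crypt base, at 3.96, 4.29 and 4.24 FPKM in WT and 2.14, 3.21 and 1.69 FPKM in *Esrra*-/-. Its groups did not overlap, and its log2 fold change of -0.85 ± 0.24 (SE, limma unadjusted p = 0.0081, adjusted p = 0.326) was called in all 15 alternative fits. *Soat1*, a cholesterol-esterifying enzyme, had a log2 fold change of -0.54 ± 0.20 (SE, unadjusted p = 0.0306, adjusted p = 0.414) and was short of the fold threshold. *Hopx*, a homeodomain protein of reserve stem cells, was at -0.65 ± 0.29 (SE, unadjusted p = 0.0595), and *Clca4* and *Pdgfa*, the other most abundant of the list, were at -0.59 ± 0.52 and 0.21 ± 0.24. Leaving out *Esrra*-/- replicate 3 gave -0.09 for *Clca4* and 0.02 for *Pdgfa*, leaving out *Esrra*-/- replicate 2 gave -1.03 for *Clca4*, and leaving out WT replicate 3 gave 0.43 for *Pdgfa*. The list had 2 genes called lower without WT replicate 1, WT replicate 3 or *Esrra*-/- replicate 3, in turn, and 5 without *Esrra*-/- replicate 2, with *Soat1* among them at -0.65, and *Hopx* was called without WT replicate 1 at -0.88 and without *Esrra*-/- replicate 3 at -0.80, but was at -0.34 without WT replicate 3. The median of the list was -0.26 without *Esrra*-/- replicate 3 and -0.35 in the 4 libraries with Y-linked transcripts. Of 5 markers of a regenerative crypt state 3 were tested, 2 with a negative and 1 with a positive log2 fold change, and 0 were called. *Anxa3*, the most abundant, was at -0.11 ± 0.20 (SE) and *Ly6a* at -0.35 ± 0.42. *Clu*, which encodes clusterin, was 0.380, 0.803 and 1.25 FPKM in WT and 2.07, 0.587 and 2.37 FPKM in *Esrra*-/-, with a log2 fold change of 0.88 ± 0.60 (SE, limma unadjusted p = 0.183, adjusted p = 0.623). The *Clu* groups overlapped through *Esrra*-/- replicate 2, without which *Clu* was called higher at 1.47 (unadjusted p = 0.0197, adjusted p = 0.333). It was 0.48 without WT replicate 1 and 0.55 without *Esrra*-/- replicate 3, neither called. *Clu* and *Ly6a* were named after their values were seen.

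The Wnt pathway beyond the members did not move as a block. Of 79 listed genes, 39 were tested, 17 with a negative and 22 with a positive log2 fold change, and the median was 0.08, with -0.01 without WT replicate 3. There were 2 called lower and 0 called higher, where 3.28% of all genes tested were called lower and 1.35% higher. None of the 11 listed ligands, which were Wnt and R-spondin genes, passed the filter, the highest at a mean of 0.777 FPKM. *Wls*, the carrier that brings Wnt proteins to the cell surface, averaged 3.65 ± 0.481 FPKM over WT libraries and 2.42 ± 0.292 FPKM over *Esrra*-/- libraries (SD, n = 3 per genotype). The *Wls* groups did not overlap, and the log2 fold change of -0.57 ± 0.17 (SE, limma unadjusted p = 0.0129, adjusted p = 0.345) was just short of the fold threshold. It passed that threshold without WT replicate 3 at -0.66, without *Esrra*-/- replicate 2 at -0.59 and without *Esrra*-/- replicate 3 at -0.65. The 7 tested receptors had a median of -0.04 with 0 called.

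Within the cell, 11 of the 13 tested cytoplasmic transducers had a positive log2 fold change, with a median of 0.18 and 0 called. Of all 10596 genes tested, 5754 were positive. Medians by role were not taken with 1 library left out. *Ctnnb1*, which encodes beta-catenin, averaged 176 ± 8.20 FPKM over WT libraries and 206 ± 16.5 FPKM over *Esrra*-/- libraries (SD, n = 3 per genotype), with a log2 fold change of 0.23 ± 0.14 (SE, limma unadjusted p = 0.148). *Dvl1*, which relays the signal from Frizzled, was at 0.36 ± 0.14 (SE, unadjusted p = 0.0367, adjusted p = 0.427), and the kinases *Gsk3a* and *Csnk1a1* were at 0.31 ± 0.18 and 0.06 ± 0.14. Of 8 tested nuclear factors 4 had a negative and 4 a positive log2 fold change, with a median of 0.03 and 1 called lower. *Tcf7l2*, the TCF factor that acts with beta-catenin in the intestine, averaged 12.8 ± 0.516 FPKM over WT and 16.7 ± 2.70 FPKM over *Esrra*-/- libraries (SD, n = 3 per genotype). All 3 *Esrra*-/- libraries lay above all 3 WT libraries, and the log2 fold change of 0.37 ± 0.15 (SE, limma unadjusted p = 0.039, adjusted p = 0.433) was short of the fold threshold in every alternative fit. The called factor was *Tcf7*, of the same family, at 2.001, 3.03 and 2.88 FPKM in WT and 1.35, 2.32 and 0.895 FPKM in *Esrra*-/-, with overlapping groups and a log2 fold change of -0.83 ± 0.35 (SE, unadjusted p = 0.0484, adjusted p = 0.458). *Tcf7* and *Tcf7l2* were named after their values were seen. Its call was lost without WT replicate 2 at -0.72, WT replicate 3 at -0.76, *Esrra*-/- replicate 1 at -0.80 or *Esrra*-/- replicate 3 at -0.53.

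Among the 3 tested antagonists, *Sfrp5*, a secreted Frizzled-like protein that captures Wnt, was called lower. It was 1.44, 2.07 and 2.27 FPKM in WT and 1.01, 1.38 and 0.617 FPKM in *Esrra*-/-. The groups did not overlap, and the log2 fold change was -0.92 ± 0.34 (SE, limma unadjusted p = 0.0308, adjusted p = 0.414). The *Sfrp5* call was lost without WT replicate 2 at -0.85, WT replicate 3 at -0.79, *Esrra*-/- replicate 1 at -0.95 or *Esrra*-/- replicate 3 at -0.64. Of the 7 tested target genes outside the members, 5 lay below 0 in log2 fold change (median -0.46), and 0 were called. Leaving out WT replicate 2 or *Esrra*-/- replicate 1 left 0 pathway genes called lower, and leaving out *Esrra*-/- replicate 2 left 5 lower and 1 higher.

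**Figure D4:**
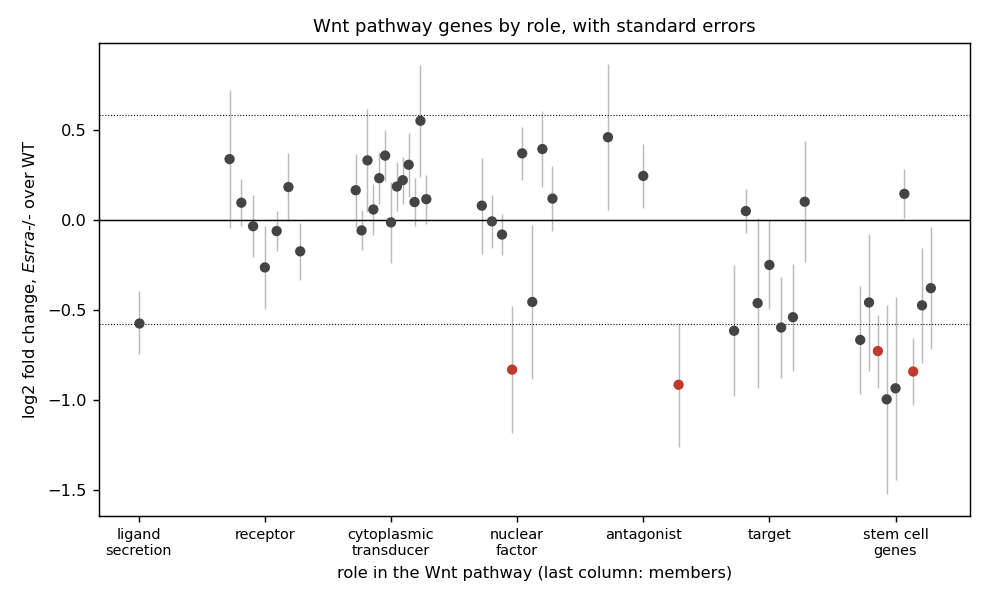
Log2 fold change of *Esrra*-/- over WT for each tested Wnt pathway gene, grouped by role, with the stem cell members in the last column, bars for the standard error, red for called genes and dotted lines at the fold threshold of 0.58. Cytoplasmic transducers have a median of 0.18 and target genes one of -0.46, and the called genes outside the members are *Sfrp5* and *Tcf7*.

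Markers of neighbouring crypt and villus cells were followed across the same libraries. All 13 Paneth cell genes lay below 0 in log2 fold change (median -1.50), and 7 were called lower. Their summed FPKM was 22982, 49163 and 18897 in WT and 12582, 19835 and 3566 in *Esrra*-/-, so *Esrra*-/- replicate 3 was again the lowest and WT replicate 2 the highest, and the groups overlapped. The most abundant, *Defa24*, fell from 5559 ± 2322 to 2221 ± 1313 FPKM (SD, n = 3 per genotype), with a log2 fold change of -1.48 ± 0.57 (SE, limma unadjusted p = 0.0336, adjusted p = 0.422), and its reads can be shared with near-identical defensin copies. The median of the list was -0.70 when *Esrra*-/- replicate 3 was left out and -1.98 when *Esrra*-/- replicate 2 was. Only 1 Paneth cell gene was called without WT replicate 1, WT replicate 2 or *Esrra*-/- replicate 3, in turn, 4 without *Esrra*-/- replicate 1 and 12 without *Esrra*-/- replicate 2. *Defa24* lost its call without WT replicate 1 at -1.61, WT replicate 2 at -1.16 and *Esrra*-/- replicate 3 at -0.87.

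Cell cycle genes, which mark the dividing daughters as well as stem cells, lay below 0 in log2 fold change for 21 of 22 (median -0.55). There were 4 called lower and 13 with an unadjusted p under 0.05, against 6.49% of all genes tested with such a p and a negative sign. *Pcna*, the sliding clamp of DNA replication and the most abundant of them, was at -0.36 ± 0.14 (SE, limma unadjusted p = 0.0367, adjusted p = 0.427). The count with such a p was 5 without WT replicate 2, *Esrra*-/- replicate 1 or *Esrra*-/- replicate 3, in turn, 8 without WT replicate 1 and 20 without *Esrra*-/- replicate 2. Of these genes 2 were called lower without WT replicate 2, *Esrra*-/- replicate 1 or *Esrra*-/- replicate 3, in turn, 11 without WT replicate 3 and 16 without *Esrra*-/- replicate 2. The 17 tested villus enterocyte genes had a median of 0.15 with 0 called, which was 0.05 without WT replicate 2, 0.04 without *Esrra*-/- replicate 3, 0.38 without WT replicate 3 and 0.36 without *Esrra*-/- replicate 2. *Apoa4*, the most abundant, was at 0.42 (unadjusted p = 0.267). Goblet, enteroendocrine and tuft cell lists had medians of 0.08, -0.17 and -0.17 with 0 called, with *Zg16* at 0.21, *Gip* at -0.24 and *Alox5ap* at -0.47 the most abundant of each. *Alox5ap* was called lower without WT replicate 2 at -0.75 (unadjusted p = 0.0372) and was at -0.15 without WT replicate 3, and *Gip* was at -0.02 without WT replicate 3 and -0.43 without WT replicate 1. The immune list had a median of -0.02, with *Cd3g* at 0.13.

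The median log2 deviation of the Paneth cell list was 0.54, 1.39 and 0.08 in WT and -0.26, 0.21 and -2.08 in *Esrra*-/-. For the cell cycle list it was 0.26, 0.49 and 0.07 in WT and -0.38, 0.11 and -0.51 in *Esrra*-/-. For villus enterocyte genes it was -0.17, -0.34 and 0.23 in WT and 0.22, -0.20 and 0.35 in *Esrra*-/-. The libraries highest and lowest for the stem cell genes were thus also highest and lowest for the Paneth cell and cell cycle lists, and the reverse order held at the ends of the villus list. The part of these cell types in the differences of the stem cell genes was not tested.

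**Figure D5:**
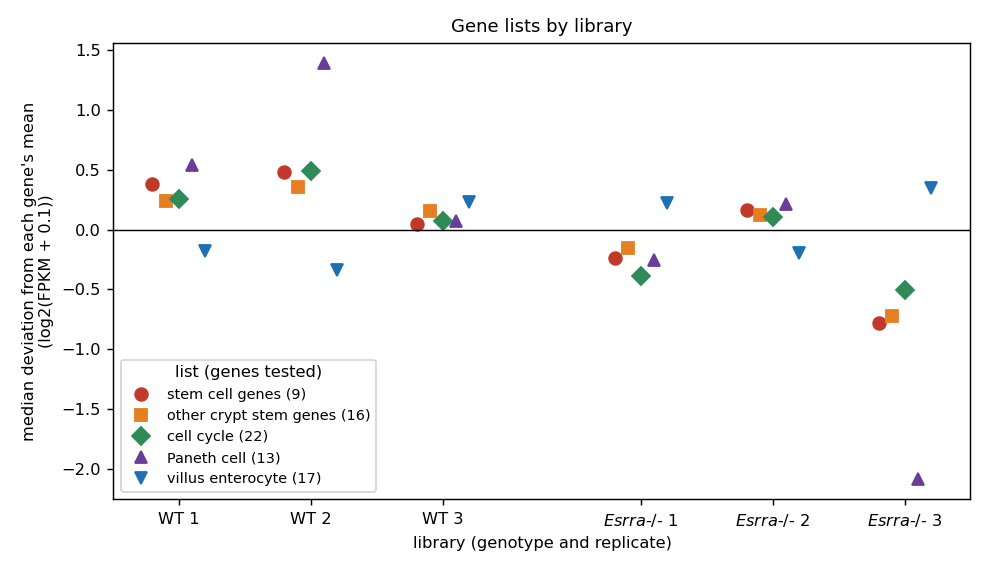
Median over the tested genes of a list of the log2 deviation from each gene's mean, for each of the 6 libraries, with a symbol for each of 5 lists. *Esrra*-/- replicate 3 is lowest for the stem cell members at -0.78 and for Paneth cell genes at -2.08, and highest for villus enterocyte genes at 0.35.

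The genes most like *Lgr5* were found by the mean absolute difference of centred log2 values over the 6 libraries. The closest was *Habp2*, a secreted serine protease, at 0.115, followed by *Slc12a2*, a sodium, potassium and chloride cotransporter of the crypt, also at 0.115. The Paneth cell genes *Mmp7* at 0.135 and *Itln1* at 0.154 came next, and *Olfm4* was the fifth, at 0.166. *Slc12a2* was 12.5, 17.4 and 7.88 FPKM in WT and 8.09, 9.69 and 3.59 FPKM in *Esrra*-/-, the same order of libraries within each genotype as *Lgr5*. The other members ranked lower in likeness, *Axin2* at 119, *Smoc2* at 175, *Cdca7* at 212, *Znrf3* at 314, *Ascl2* at 653, *Sox9* at 696 and *Rnf43* at 5100. These 6 libraries share their preparation and genotype groups, so likeness here is a description.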

How the data were processed

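The authors quantified paired-end reads with Kallisto 2.1.0 against mm9 after FastQC 0.11.3 and calculated FPKM with DESeq2 2.2.1, per the submitters' processing notes and the methods. The annotation is not given in the sources used here. The deposited FPKM values are scaled to transcript length and between libraries. They do not give the depth of each library, for which the study states only a common read number, and no count test was run. Rescaling by median ratios hardly moved the values (median log2 fold change of the members -0.668 against -0.667), so that alternative is a weak check. The summed FPKM was 707094 to 999902 per library. The authors' comparison table, with mean counts, fold changes and p-values, was not used.

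Values were tested as log2(FPKM + 0.1) with limma 3.58.1 (trend, R 4.3.3) on genes with a mean FPKM above 1, with Benjamini-Hochberg adjustment over all of them. Fold changes on this scale understate those of low genes. The procedure was tested on simulated data. Members and gene lists were chosen with earlier results of these data known. Named genes were all members, the called genes of the Wnt and other stem cell lists, or the 3 with the smallest p where fewer than 3 were called, the 3 most abundant of each, the most abundant of each marker list and the 5 nearest to *Lgr5*. Gene positions are from GENCODE M1 on mm9. Alternatives changed the pseudocount, filter, scaling, trend, covariate, block or left out 1 library.

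Same-numbered WT and *Esrra*-/- libraries deviated together with r = 0.0116, 0.263 and 0.376 across genes. The labels name no pairs and these values cannot settle pairing, so the reported fit took none.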

Additional observations from a re-analysis of the deposited data

How the results depend on the processing

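Over the alternatives run, none of the members changed direction. *Smoc2* and *Cdca7* were called lower in all 15 alternative fits. The number of members called lower was 2 in the reported fit, 4 with Y-linked transcripts as a covariate and 3 with no filter or without the limma trend, and it ranged from 2 to 5 when 1 library was left out, with 5 without *Esrra*-/- replicate 2. None was called higher in any fit. The median log2 fold change of the members was -0.44 with a pseudocount of 1, against -0.67 in the reported fit. With the replicate number as a block, 4 members, 441 genes lower and 192 genes higher were called. The labels do not say whether same-numbered libraries are pairs. WT replicates 2 and 3 correlated best with the same number in *Esrra*-/- (r = 0.263 and 0.376). WT replicate 1 correlated best with *Esrra*-/- replicate 2 (r = 0.182), and such values cannot settle pairing. Genes called lower numbered 348 in the reported fit, 528 with no filter and 252 to 537 with 1 library left out, the highest without *Esrra*-/- replicate 2. Genes called higher numbered 143, 277 with no filter and 146 to 214 with 1 library left out. Paneth cell genes called lower went from 7 to 1 with quantile normalization (list median -1.27) or no filter (list median -1.50, as reported), and Wnt pathway genes from 2 to 0 with a pseudocount of 1 or an FPKM above 1 in every library. With the Y-linked covariate, 13 Paneth cell, 8 cell cycle and 5 other stem cell genes were called lower.

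Directions reversed for *Anxa3* and *Ly6a*, at 0.24 and 0.014 in the libraries without Y-linked transcripts, and for *Cd3g*, at -0.17 in those with them and -0.11 to 0.49 with 1 library left out. They also reversed for *Csnk1a1*, at -0.012 to 0.13, and *Eif2s3y*, the most abundant Y-linked gene, at -1.92 to 2.94, with 1 library left out. The cause was not tested.

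The limits are 3 libraries per genotype, no read depth for each library and low FPKM of *Lgr5*, *Znrf3*, *Ascl2* and *Tnfrsf19*. A permutation of single genes cannot go below p = 0.1. Genotype calls rest on unadjusted p-values.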
